A study of Mus musculus with 6 samples.

Results

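Chondroitin sulfate proteoglycan genes and the gene of a link protein that anchors such proteoglycans were examined in mouse primary oligodendrocyte precursor cells (mOPCs) after knockdown of Qk, which encodes the Quaking RNA-binding proteins. The members were taken by gene symbol, and all 8 (Cspg4, Cspg5, Ncan, Bcan, Vcan, Acan, Ptprz1 and Hapln1) were found among the 23038 genes of the files. Cspg4 was the member whose transcript was called changed, with a mean of 2.17 ± 0.446 RPKM (reads per kilobase of exon, scaled to the depth of the library; SD, n = 3) in control cells and 4.58 ± 0.484 RPKM (SD, n = 3) in knockdown cells. Ncan and Vcan were higher in every knockdown library than in every control library but missed the cutoffs of the test. Among all tested genes, 31.0% were called changed. In RPKM, 41.9% of them had every knockdown library above every control library. Bcan, Ptprz1 and Cspg5 were not called changed, and Acan and Hapln1 were too low to be tested.

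The mOPCs had been purified from mid-gestation mouse embryos by immunopanning, a capture of cells on antibody-coated dishes, and were cultured. Cells of one group (siNC, n = 3) were transfected with control siRNA and cells of the other (siQk, n = 3) with siRNA against Qk, and both were collected 72 h later, so the control cells share the transfection. In all, 3 different siRNAs against Qk were used, and which of them each siQk library received is not given in the sources used here. The groups are replicate cultures, so that each library stands for a culture and not for an animal.

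A chondroitin sulfate proteoglycan is a core protein that carries long, sulfated sugar chains. The lecticans (aggrecan, brevican, neurocan and versican) bind hyaluronan at one end, where a link protein such as Hapln1 stabilizes the bond, and tenascins at the other, and they build the loose matrix of the brain and the perineuronal nets. NG2 (Cspg4), neuroglycan C (Cspg5) and the phosphatase Ptprz1 span the membrane instead. NG2 is the surface marker by which OPCs are most often recognized, and it is lost as these cells mature. Pericytes and cartilage cells also make some of these proteins.

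Quaking proteins bind RNA at an ACUAAY core (Y, a pyrimidine), often with a UAAY element nearby, so the longest annotated 3'UTR of each member was searched on the sense strand for ACTAAC and ACTAAT, the DNA spelling of that core. At least 1 copy was present in 36.2% of the 10819 tested genes with such a 3'UTR, at a density of 0.344 per kb. The members held 11 copies in all, in Vcan, Ncan, Cspg5 and Ptprz1, while Cspg4, Bcan, Acan and Hapln1 held 0. Introns, coding sequence and 5'UTRs were not searched, and a link between cores and calls was not tested. The sites below are shown because they lie in the 4 members with a core. Each is 30 bases long and reads 5′ to 3′ on the strand of the transcript, with the core in capitals. The Vcan sites lie on the minus strand at chr13:89656425-89656454 and chr13:89655805-89655834, the Ncan site on the minus strand at chr8:70094897-70094926, the first Cspg5 site on the plus strand at chr9:110256739-110256768 and the first Ptprz1 site on the plus strand at chr6:23002976-23003005 (GENCODE M21 on GRCm38, the assembly of mm10).
Vcan site 1: ggctttcttaacACTAACcctggtaaggta
Vcan site 2: ccttcatttacaACTAACagaaaaggcaaa
Ncan site: gcatgtacacacACTAACacaccttctcgc
Cspg5 site 1: gctcactgtgtgACTAACattgaatgtgca
Ptprz1 site 1: ttgtgtgttgttACTAATtcctattctaca

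In Vcan site 1 the core is preceded directly, with 0 bases between, by a TAAC element. A long 3'UTR holds a core more often than a short one, so the members are set beside tested genes with a 3'UTR of 0.8 to 1.25 times their own length. Vcan held 2 cores in 1919 bases, where 44.9% of such genes held any. Ncan held 1 core in 3235 bases, where 63.8% did, and Cspg5 held 2 cores in 6091 bases, where 81.9% did. These Cspg5 cores lie in 1 annotated transcript, and its other coding transcripts end in 3'UTRs of 354 or 355 bases that hold 0. Both Vcan cores lie together in 1 annotated transcript too. The other Vcan coding transcripts end in 3'UTRs of 175, 436 or 586 bases that hold 0 cores, and of 891 or 914 bases that hold 1 each. Ptprz1 held 6 cores in 1927 bases, or 3.11 per kb, where 45.2% of like genes held any. That 3'UTR belongs to a 12-exon transcript that ends at base 23004678 of chromosome 6, within the span of the gene. The 30-exon transcript of 8068 bases holds 1 core in a 3'UTR of 804 bases. A 30-exon transcript of 4947 bases holds 0 in a 3'UTR of 505 bases. Among the members without a core, the share of like genes with one was 25.9% for Cspg4 (980 bases), 11.7% for Bcan (341 bases), 22.7% for Acan (823 bases) and 66.7% for Hapln1 (3503 bases). A match of letters is not a measured binding site, and binding was not measured in these libraries.

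The libraries held 58166490 to 141045937 tags, the estimated counts to which RPKM refers. The members took 0.256% to 0.305% of all tags in siNC and 0.333% to 0.357% in siQk, ranges that did not overlap (0.286 ± 0.0264% against 0.342 ± 0.0129%, SD, n = 3, exact two-sided permutation p = 0.1, the smallest that 3 libraries against 3 allow). That share follows the library totals, a scale on which 41.9% of the tested genes had RPKM ranges apart with siQk above. The summed RPKM of the 8 members overlapped, at 450 ± 75.6 in siNC and 512 ± 20.7 in siQk (SD, n = 3, exact two-sided permutation p = 0.2). The targeted gene was lower in every siQk library, with 36.2 to 76.6 RPKM against 163 to 209 RPKM in siNC (log2 fold change -1.98, SE 0.28, FDR 0.00311 by edgeR's quasi-likelihood test). That test was run on the 12505 genes whose logCPM averaged over 0, and its calls needed a P under 0.01 together with an FDR (Benjamini-Hochberg) under 0.1. It called 31.0% of the tested genes, 13.8% higher and 17.2% lower in siQk. Of the 8 members, 6 were tested and 1 was called. The median log2 fold change of those 6 was 0.20, beside 0.010 over all tested genes, and 4 were positive and 2 negative. Scaling matters to these directions: the factors of the TMM method were 0.899 to 0.987 in siNC and 1.04 to 1.07 in siQk. With library totals alone as the scale, the median of all tested genes moved to 0.16 and the share of calls that were higher in siQk from 44.6% to 68.6%, while upper quartile factors gave 55.6%. Plain RPKM follows the library totals and so sits slightly higher in siQk than the fitted fold changes do.

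The levels of the members differed by several orders of magnitude. In siNC the order of mean RPKM was Bcan, Ptprz1, Ncan, Cspg5, Vcan, Cspg4, Acan and Hapln1. Ptprz1 and Ncan overlapped in that order, as did Acan and Hapln1, and every other pair of neighbours had separate ranges. Bcan stood 2.17 times above Ptprz1, Ncan 4.05 times above Cspg5, Cspg5 1.54 times above Vcan and Vcan 6.84 times above Cspg4. In siQk Ncan and Ptprz1 again overlapped, now with Ncan first by a ratio of 1.01, and Cspg5 and Vcan came to overlap, with a ratio of 1.11 between their means. These comparisons rest on the exon length in the files, which was 1.46 times the longest GENCODE coding transcript for Cspg4, 1.24 times for Ptprz1, 1.21 times for Bcan and 0.885 to 1 times for the others.

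**Figure D1:**
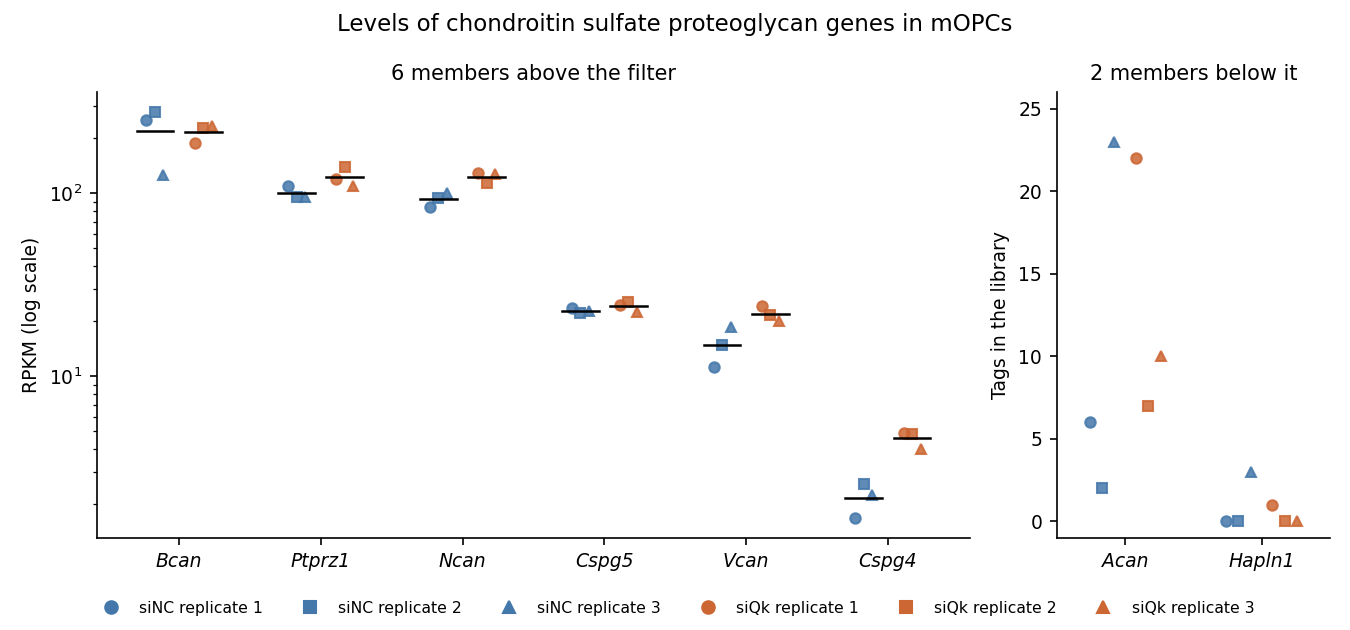
Levels of the members in each of the 6 libraries. The left panel plots RPKM on a log axis for the 6 tested members, with blue for siNC, orange for siQk and a symbol for each replicate number, and the right panel plots the tags of Acan and Hapln1 on a linear axis. The 3 siQk points of Cspg4, Ncan and Vcan all lie above the 3 siNC points, and 1 siNC point of Bcan, at 125 RPKM, lies far below the other libraries.

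Among the lecticans, Bcan, the gene of brevican, the smallest lectican and one that the oligodendrocyte lineage and astrocytes both make, was the most abundant. It lies on the minus strand of chromosome 3 (87987531 to 88000230; Entrez 12032). Its level was 250.2, 276 and 125 RPKM in siNC and 189, 228 and 232 RPKM in siQk. The third siNC library was the lowest of all, the other two siNC libraries were the highest, and the siQk libraries lay between. The means were 217 ± 81.0 and 216 ± 23.6 RPKM (SD, n = 3), and the log2 fold change was -0.17 (SE 0.30, FDR 0.673 by edgeR's quasi-likelihood test). The absence of a call rests on siNC replicate 3. Its level was exceeded 2.11 times by the mean of the other siNC libraries and 1.51 times by the lowest other library. Without that library, Bcan was called lower in siQk (log2 fold change -0.46, FDR 0.0231 by edgeR's quasi-likelihood test), and without siNC replicate 2 the log2 fold change was 0.018.

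The summed level of mature oligodendrocyte markers was also lowest among the siNC libraries in replicate 3. The summed RPKM of Mbp, Mag, Mog, Mobp, Cnp, Cldn11 and Opalin was 2753, 2185 and 1759 in siNC and 926, 841 and 1138 in siQk. Cldn11 and Opalin were exceptions, with siNC replicate 2 the lowest of its group, at 737 and 82.9 RPKM against 834 and 115 RPKM in replicate 3. Of these 7 markers, 6 were called lower in siQk, with a median log2 fold change of -1.35, and none was at 0 in any library. Cnp, the gene of a myelin-associated enzyme, had the highest mean over the 6 libraries. The count called was 3 with the replicate number as a block, 2 without siQk replicate 1 or without siQk replicate 2, and 4 or 5 without any 1 of the other libraries. In bulk RNA, fewer cells of a type and less RNA per cell cannot be told apart, and the part of these cells in the level of Bcan was not tested.

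Ncan, the gene of neurocan, a lectican best known from neurons and astrocytes, lies on the minus strand of chromosome 8 (70093085 to 70120873; Entrez 13004). It measured 84.0, 94.3 and 99.6 RPKM in siNC and 129, 114 and 127 RPKM in siQk. All siQk libraries were above all siNC libraries. The same held for Cspg4 and Vcan, and 0 members had all siQk libraries below all siNC libraries. Ranges apart with siQk above were found in 41.9% of the tested genes on the RPKM scale and in 27.8% once RPKM had been divided by the TMM factors, and ranges apart with siQk below in 16.4% and 26.5%, so that such separation is common here. The means were 92.6 ± 7.97 and 123 ± 7.88 RPKM (SD, n = 3). The fitted log2 fold change was 0.26 (SE 0.081, FDR 0.0414 by edgeR's quasi-likelihood test), which passed the FDR cutoff and missed that on the unadjusted P. Ncan was called higher under 6 of the 14 alternative settings, with log2 fold changes of 0.23 to 0.41 over all of them.

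Vcan encodes versican, a large lectican made by OPCs whose long forms are known to inhibit axon growth, and lies on the minus strand of chromosome 13 (89655312 to 89742509; Entrez 13003). Its level was 11.3, 14.7 and 18.6 RPKM in siNC and 24.1, 21.7 and 20.01 RPKM in siQk. The siNC libraries differed among themselves by more than the siQk libraries did, and the highest siNC library was still below the lowest siQk library. The means were 14.9 ± 3.65 and 21.9 ± 2.06 RPKM (SD, n = 3). The fitted difference was 1.34-fold (log2 fold change 0.42, SE 0.15, FDR 0.0677 by edgeR's quasi-likelihood test), and it too missed the cutoff on the unadjusted P. Leaving out siNC replicate 3 gave 0.58 and a call (FDR 0.0162 by the same edgeR test). The versican isoforms, which differ in the exons that carry the sugar chains, were not analysed here.

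Acan encodes aggrecan, the lectican of cartilage and of perineuronal nets, and lies on the plus strand of chromosome 7 (79053483 to 79115099; Entrez 11595). It received 6, 2 and 23 tags in siNC and 22, 7 and 10 tags in siQk. The ranges overlapped, and no library reached more than 0.0237 RPKM. The means were 0.0134 ± 0.0106 and 0.0145 ± 0.00583 RPKM (SD, n = 3), and a difference was not detectable at this depth. Cartilage markers were not uniformly low: of Col2a1, Col10a1, Col11a2, Matn1, Comp and Prg4, 4 were under 1 RPKM in every library. The highest, Col11a2, measured 14.1 ± 3.02 RPKM in siNC and 20.7 ± 6.20 RPKM in siQk (SD, n = 3). Prg4 had means of 2.35 RPKM in siNC and 2.89 RPKM in siQk. Both lay higher in every siQk library, as 41.9% of the tested genes did in RPKM, and neither was called.

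The summed RPKM of the 4 lecticans was 325 ± 73.4 in siNC and 361 ± 18.5 in siQk (SD, n = 3, exact two-sided permutation p = 0.7), and the makeup of that sum is free of library size. Bcan made up 72.4%, 71.7% and 51.4% of it in siNC and 55.3%, 62.7% and 61.2% in siQk. The share of Ncan was 24.3%, 24.5% and 41.0% in siNC and 37.6%, 31.4% and 33.5% in siQk, and that of Vcan 3.26%, 3.82% and 7.63% in siNC and 7.05%, 5.95% and 5.29% in siQk. For each of the 3 genes, siNC replicates 1 and 2 stood on one side of all siQk libraries and siNC replicate 3 on the other. The shares of Bcan were 65.2 ± 11.95% and 59.7 ± 3.90% (SD, n = 3, exact two-sided permutation p = 0.6). For Ncan they were 29.9 ± 9.58% and 34.2 ± 3.19% (SD, n = 3, exact two-sided permutation p = 0.6), and for Vcan 4.91 ± 2.38% and 6.10 ± 0.890% (SD, n = 3, exact two-sided permutation p = 0.5), so that no share differed between the groups beyond the spread of its libraries. The share of Acan was at most 0.00974%.

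**Figure D2:**
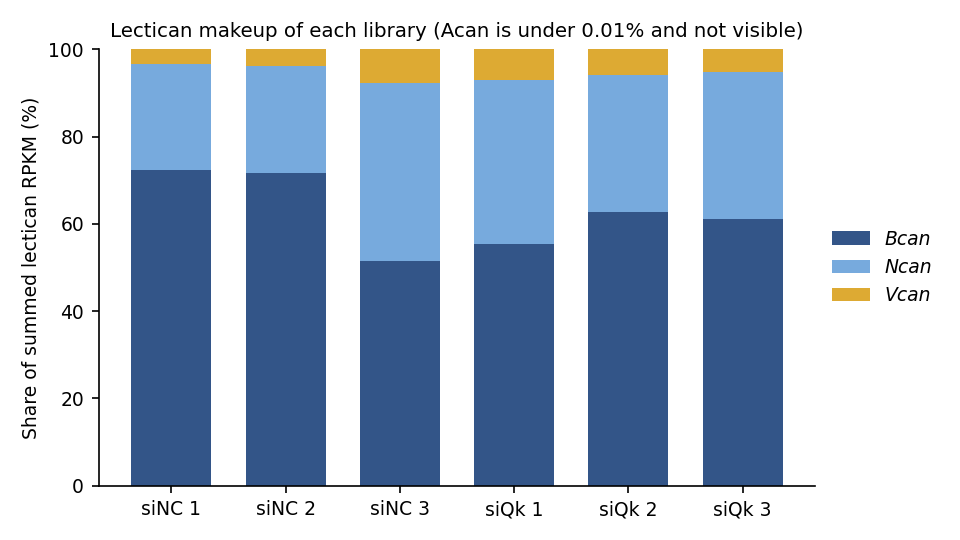
Share of each lectican gene in the summed RPKM of Bcan, Ncan, Vcan and Acan, in percent, as a stacked bar for each library. Bcan takes 72.4% and 71.7% in the first siNC libraries, 51.4% in the third and 55.3% to 62.7% in the siQk libraries.

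Hapln1, the gene of the link protein that holds lecticans to hyaluronan, lies on the plus strand of chromosome 13 (89539796 to 89611652; Entrez 12950), beside Vcan. It received 0, 0 and 3 tags in siNC and 1, 0 and 0 tags in siQk. The 4 libraries at 0 allow a level of up to 0.0102 and 0.00536 RPKM (siNC replicates 1 and 2) and 0.00718 and 0.00469 RPKM (siQk replicates 2 and 3), if 3 tags are taken as the limit for a count of 0. That limit covers counting error only. The Hapln1 transcript was therefore at or near the floor in both groups, and no fold change is given.

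Of the membrane-spanning proteins, NG2 is encoded by Cspg4 on the plus strand of chromosome 9 (56865033 to 56899870; Entrez 121021). NG2 marks OPCs and serves as a coreceptor for growth factors and as a binding partner of collagen. Cspg4 measured 1.69, 2.57 and 2.25 RPKM in siNC and 4.89, 4.83 and 4.03 RPKM in siQk, from 1167 to 3529 and 4737 to 8185 tags. All siQk libraries stood above all siNC libraries, and the lowest siQk value exceeded the highest siNC value by more than the range of either group. The difference was 1.90-fold after TMM scaling (log2 fold change 0.93, SE 0.14, FDR 0.00410 by edgeR's quasi-likelihood test). An exact two-sided permutation test on log2(RPKM + 0.1) gave p = 0.1. Under all 14 alternatives Cspg4 was called higher, with log2 fold changes from 0.81, without siNC replicate 1, to 1.07, with library totals as the scale. By absolute log2 fold change it ranked 1162 of the 12505 tested genes, so that many genes moved further.

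Pericytes also make NG2, so the markers of vascular and connective tissue cells are given beside Cspg4. Of Pdgfrb, Rgs5, Kcnj8, Abcc9, Acta2, Pecam1, Cldn5, Col1a1, Col1a2 and Lum, all 10 were under 1 RPKM in every library and none passed the filter for testing. When that filter was dropped, or replaced by edgeR's own filter on counts, 1 was called changed. Their summed level was 0.535 to 0.766 RPKM in siNC and 0.705 to 0.900 RPKM in siQk, below that of Cspg4 alone in each group. Pdgfrb, which defines pericytes, was at most 0.00317 RPKM, Cldn5 was at 0 in every library, Rgs5 gave the highest single value, 0.390 RPKM in siNC replicate 1, and Acta2 the highest group mean, 0.337 RPKM in siQk against 0.111 RPKM in siNC. Acta2, Abcc9 (mean 0.0103 RPKM for siNC, 0.0339 RPKM for siQk) and Col1a2 (at most 0.00242 RPKM) lay higher in every siQk library. Col1a2 had 0 tags in each siNC library and 1 or 2 in each siQk library, which is near the floor. Such separation was common, at 41.9% of the tested genes in RPKM, though none of these 10 was tested. None of the 10 lay lower in every siQk library. The mean of Rgs5 was lower, at 0.142 RPKM for siQk against 0.282 RPKM for siNC, but its ranges overlapped. The part of such cells in the level of Cspg4 was not tested. Microglial markers summed to 0.721 to 3.31 RPKM in siNC and 0.301 to 0.407 RPKM in siQk. P2ry12 was the highest of them and the 1 tested, and it was called lower (log2 fold change -3.16, FDR 0.00886 by edgeR's quasi-likelihood test). The fall in the microglial sum was nearly all P2ry12, since no other marker of that list exceeded 0.125 RPKM in any library. At these low levels the other markers did not move together. Aif1, with at most 15 tags in a library, lay higher in every siQk library (means of 0.0542 RPKM in siNC and 0.116 RPKM in siQk). Itgam lay lower in every siQk library (means of 0.0135 RPKM in siNC and 0.00406 RPKM in siQk). The ranges of Csf1r (means of 0.0228 RPKM in siNC and 0.0117 RPKM in siQk) and Cx3cr1 overlapped.

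The other OPC markers did not move as 1 group with Cspg4. Of Pdgfra, Olig1, Olig2, Sox10, Lhfpl3, Gpr17 and Nkx2-2, 3 were called higher (Nkx2-2, Olig2 and Olig1), Lhfpl3 was called lower and 3 were not called. The summed RPKM of the 7 was 944 to 1010.3 in siNC and 1149.7 to 1280.5 in siQk, with Olig1 the highest. Pdgfra, the receptor that OPCs need for growth, measured 82.0 ± 11.5 RPKM in siNC and 97.5 ± 20.9 RPKM in siQk (SD, n = 3; log2 fold change 0.10, FDR 0.636 by edgeR's quasi-likelihood test). Astrocyte markers summed to 158 to 232 RPKM in siNC and 121 to 141 RPKM in siQk, led by Aldoc, and 3 of the 5 that were tested were called lower (Gfap, Slc1a2 and Aldh1l1). Neuronal markers summed to 100.1 to 170 RPKM in siNC and 74.9 to 114 RPKM in siQk, nearly all of it Tubb3, which was not called, with Slc17a6 at 0 in every library. Of the 4 tested, Snap25 was called higher, from 0.751 ± 0.124 RPKM in siNC to 5.18 ± 2.16 RPKM in siQk (SD, n = 3; log2 fold change 2.64, FDR 0.00211 by edgeR's quasi-likelihood test). Syt1 also lay higher in every siQk library, with means of 1.55 and 3.14 RPKM in siNC and siQk, and was not called (FDR 0.0609 by the same edgeR test). The part of such cells in the members' levels was not tested.

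Cspg5 encodes neuroglycan C, a membrane proteoglycan with an epidermal growth factor-like domain, and lies on the plus strand of chromosome 9 (110243783 to 110262576; Entrez 29873). It measured 23.7, 22.2 and 22.7 RPKM in siNC and 24.7, 25.5 and 22.6 RPKM in siQk. The ranges overlapped, and relative to their mean the libraries of each group lay closer together than those of any other tested member. The means were 22.9 ± 0.773 and 24.3 ± 1.52 RPKM (SD, n = 3). After TMM scaling the log2 fold change was -0.069 (SE 0.079, FDR 0.516 by edgeR's quasi-likelihood test), while library totals as the scale gave 0.085, so that its sign depends on the scale.

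Ptprz1, on the plus strand of chromosome 6 (22875502 to 23052916; Entrez 19283), encodes a receptor tyrosine phosphatase whose secreted form is phosphacan. Pleiotrophin binds its sugar chains, and OPCs carry it at high levels. It measured 109.5, 95.4 and 95.8 RPKM in siNC and 119.6, 138 and 109 RPKM in siQk. The lowest siQk library fell just within the siNC range. The means were 100.2 ± 8.06 and 122 ± 14.8 RPKM (SD, n = 3). The fitted log2 fold change was 0.13 (SE 0.12, FDR 0.444 by edgeR's quasi-likelihood test), and leaving out any 1 library gave 0.042 to 0.24. Gene totals do not separate the receptor from its secreted form, nor the 12-exon transcript with 6 motif cores from the others.

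**Figure D3:**
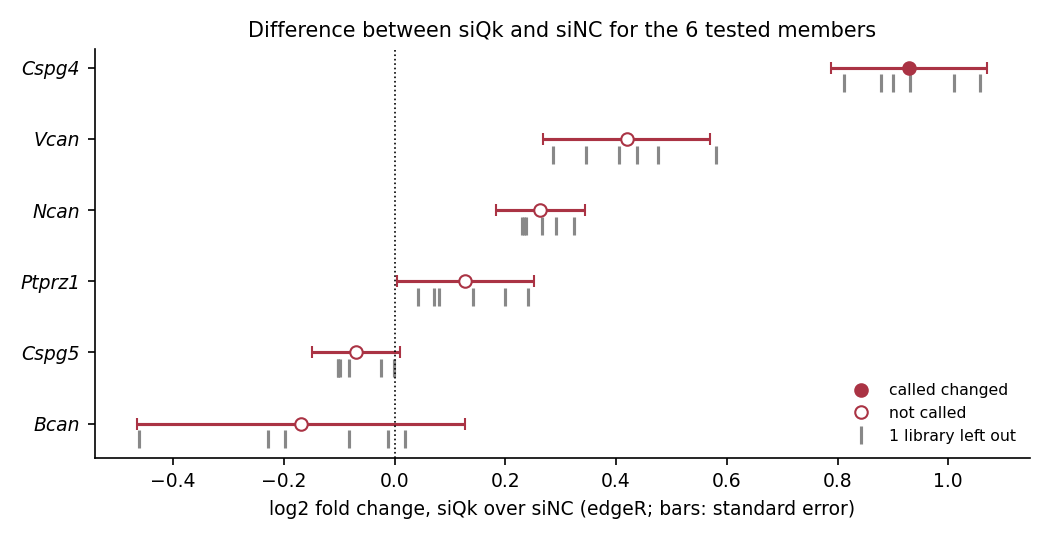
Log2 fold change of siQk over siNC for the 6 tested members, with bars for the standard error of edgeR's quasi-likelihood fit, a filled point for a called change and grey ticks for the value with 1 library left out. Cspg4 lies at 0.93 with every tick at 0.81 or more, and Bcan lies at -0.17 with ticks from -0.46 to 0.018.

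To list the genes with the most similar profiles, the log2 CPM values of each member were centred over the 6 libraries and compared with those of the 10038 tested genes with an average logCPM over 3. The measure was the root mean square difference over the 6 libraries, in log2 units. Closest to Cspg4 were Serp2 at 0.025 and Tox3 at 0.077. Closest to Ncan were A630007B06Rik at 0.030 and Narf at 0.037, and to Vcan Mpp1 at 0.035 and Phlda1 at 0.066. Cspg5 was followed most closely by BC003965 at 0.024 and Tubb5 at 0.031, and Ptprz1 by Chd1l at 0.045 and D3Ertd751e at 0.050. Bcan had the most distant neighbours, Tpm3 at 0.11 and Fert2 at 0.12. No member was among the nearest of another. With 10038 candidates and 6 values each, close neighbours are easily found, and no distance expected by chance was computed. Shared regulation was not tested.

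Other genes of chondroitin sulfate and hyaluronan biology were described from 7 lists with 58 genes in all. Of these, 46 were tested and 15 were called, 7 higher and 8 lower. That share, 32.6%, was near the 31.0% of all tested genes, and the median log2 fold change was 0.051, so the lists as a whole did not stand apart from the background. The called genes lay on different steps, which are taken in turn.

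Hyaluronan, the chain to which lecticans attach, is made by the Has enzymes and bound by Cd44. Of the 8 genes on the list of hyaluronan synthesis, receptors and other link proteins, 6 were tested, 1 was called higher and 1 lower, with a median log2 fold change of 0.086. Cd44, the main hyaluronan receptor and an adhesion molecule, fell from 16.6, 17.3 and 17.4 RPKM in siNC to 5.82, 4.30 and 5.64 RPKM in siQk, with no overlap (log2 fold change -1.85, SE 0.13, FDR 0.000446 by edgeR's quasi-likelihood test). Hmmr, which binds hyaluronan and also the mitotic spindle, rose from 1.45, 1.57 and 1.42 RPKM to 7.94, 6.28 and 4.08 RPKM (log2 fold change 1.89, SE 0.23, FDR 0.00213 by the same edgeR test). Has2, a hyaluronan synthase, measured 5.25 ± 1.82 RPKM in siNC and 10.3 ± 2.04 RPKM in siQk (SD, n = 3), and at a log2 fold change of 0.82 (SE 0.25, FDR 0.0400 by the same edgeR test) it missed the cutoff on the unadjusted P. It was called under 5 of the 14 alternatives (DESeq2, library totals as the scale, no filter on low counts, FDR below 0.05 alone, and without siNC replicate 3), with log2 fold changes of 0.61 to 1.09 over all of them.

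Of the 6 binding partners of lecticans and Ptprz1, 5 were tested and 1 was called, with a median log2 fold change of 0.46. Ptn, the gene of pleiotrophin, the ligand of Ptprz1, rose from 168, 158 and 139 RPKM in siNC to 271, 274 and 282 RPKM in siQk, ranges far apart (log2 fold change 0.67, SE 0.11, FDR 0.00475 by edgeR's quasi-likelihood test). The ligand was called higher and its receptor was not, and the difference between them was not tested. Tnr, the gene of tenascin-R, to which lecticans bind, was the most abundant of these partners, with means of 244 ± 56.8 and 250 ± 4.43 RPKM in siNC and siQk (SD, n = 3), and was not called (log2 fold change -0.13, but 0.035 with library totals as the scale and 0.12 without siNC replicate 1). Cntn1, a neural adhesion molecule that binds Ptprz1, measured 54.0, 75.8 and 75.7 RPKM in siNC and 112, 123 and 77.6 RPKM in siQk. It had a log2 fold change of 0.46 (SE 0.18, FDR 0.0914 by edgeR's quasi-likelihood test) and was called when siQk replicate 3 was left out, at 0.63. Nrcam, a further adhesion molecule, was at 26.4 and 28.0 RPKM (means of siNC and siQk) and was not called.

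The 4 receptors through which neurons sense chondroitin sulfate gave 3 tested genes, of which 2 were called lower (median log2 fold change -0.52). Ptprf, a LAR-type phosphatase, fell from 34.4 ± 2.88 to 26.7 ± 1.04 RPKM (SD, n = 3; log2 fold change -0.52, SE 0.073, FDR 0.00321 by edgeR's quasi-likelihood test). Rtn4rl1, a Nogo receptor relative, was low, at 0.597 ± 0.267 and 0.218 ± 0.0908 RPKM (SD, n = 3; log2 fold change -1.58, SE 0.42, FDR 0.0269 by the same edgeR test). Its call was lost without siNC replicate 2 or 3, without siQk replicate 2 or 3, with library totals as the scale, and with the replicate number as a block, with log2 fold changes of -1.87 to -1.26 over all settings. Ptprs, the receptor best known for this role, was the most abundant at 133 ± 2.65 and 156 ± 8.58 RPKM (SD, n = 3) and was not called (log2 fold change 0.079).

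All 13 genes of linkage and chain synthesis were tested, and 2 were called higher and 1 lower, with a median log2 fold change of 0.056. Ugdh, which makes the glucuronic acid donor of the chain, rose from 38.1, 42.4 and 52.1 RPKM in siNC to 84.3, 90.2 and 65.2 RPKM in siQk (log2 fold change 0.71, SE 0.14, FDR 0.00916 by edgeR's quasi-likelihood test). Csgalnact2, which starts the chondroitin chain and was singled out after its values were seen, rose from 4.10 ± 0.0536 to 6.03 ± 0.263 RPKM (SD, n = 3; log2 fold change 0.41, FDR 0.00959 by the same edgeR test). Chsy3, a chondroitin synthase, fell from 0.686 ± 0.0910 to 0.188 ± 0.0238 RPKM (SD, n = 3; log2 fold change -2.02, SE 0.18, FDR 0.000895 by the same edgeR test). None of the others was called, among them B3gat3, which closes the linker that joins chain and protein, at 17.04 and 16.8 RPKM (means of siNC and siQk). The polymerizing factors Chpf (11.4 and 12.2 RPKM) and Chpf2 (9.93 and 10.5 RPKM) were not called either, and the sign of both turned with library totals as the scale and without siNC replicate 3.

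Of the 13 genes of sulfation and epimerization, 11 were tested, 2 were called higher and 2 lower (median log2 fold change -0.054). Papss1, which makes the sulfate donor used by all sulfotransferases, fell from 135, 127 and 117 RPKM in siNC to 82.9, 86.6 and 86.9 RPKM in siQk (log2 fold change -0.72, SE 0.094, FDR 0.00256 by edgeR's quasi-likelihood test). Chst11, a chondroitin 4-O-sulfotransferase, rose from 8.09, 5.69 and 9.48 RPKM to 15.6, 15.5 and 15.3 RPKM (log2 fold change 0.84, SE 0.17, FDR 0.0110 by the same edgeR test). Chst3, a chondroitin 6-O-sulfotransferase, fell from 6.42, 4.72 and 4.74 RPKM to 2.93, 3.90 and 2.96 RPKM (log2 fold change -0.86, SE 0.19, FDR 0.0134 by the same edgeR test), so that Chst11 and Chst3 were called in opposite directions. A further 4-O enzyme, Chst12 (log2 fold change 0.20, FDR 0.151), and a further 6-O enzyme, Chst7 (-0.054, FDR 0.836), were not called by that test. The call of Chst3 was lost without siQk replicate 1 (-0.79) and without siQk replicate 3 (-0.80). Chst15, which adds a further sulfate to 4-O-sulfated units, was low and rose from 0.165 ± 0.0343 to 0.372 ± 0.0632 RPKM (SD, n = 3; log2 fold change 1.01, FDR 0.0133 by the same edgeR test), a call lost without siQk replicate 2 (0.89). The uronyl sulfotransferase gene Ust (35.4 and 41.6 RPKM) and the sulfate donor transporter gene Slc35b2 (49.0 and 41.9 RPKM) were not called. Sulfation of the chains was not measured.

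All 7 genes of lectican-cleaving proteases and their inhibitor were tested, with 1 called higher and 2 lower (median log2 fold change 0.20). Adamts4, an aggrecanase that also cuts brevican, fell from 62.3, 58.5 and 33.2 RPKM in siNC to 17.6, 10.9 and 22.7 RPKM in siQk (log2 fold change -1.75, SE 0.35, FDR 0.0101 by edgeR's quasi-likelihood test). As with Bcan and the summed mature oligodendrocyte markers, siNC replicate 3 was the lowest library of its group. Adamts1, a related protease, fell from 15.7 ± 3.89 to 8.90 ± 0.864 RPKM (SD, n = 3; log2 fold change -0.96, SE 0.16, FDR 0.00561 by the same edgeR test). Timp3, the matrix-bound inhibitor of these proteases, rose from 46.5, 41.9 and 36.9 RPKM to 74.6, 79.7 and 82.7 RPKM (log2 fold change 0.76, SE 0.12, FDR 0.00488 by the same edgeR test). Protease activity and cleaved fragments were not measured.

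Of the list of 7 other chondroitin sulfate proteoglycans, 6 were under 1 RPKM in every library. The remaining gene, Spock2, which encodes a secreted testican, was the 1 tested and was not called, at 3.19 ± 1.91 and 2.46 ± 0.392 RPKM (SD, n = 3; log2 fold change -0.52).

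**Figure D4:**
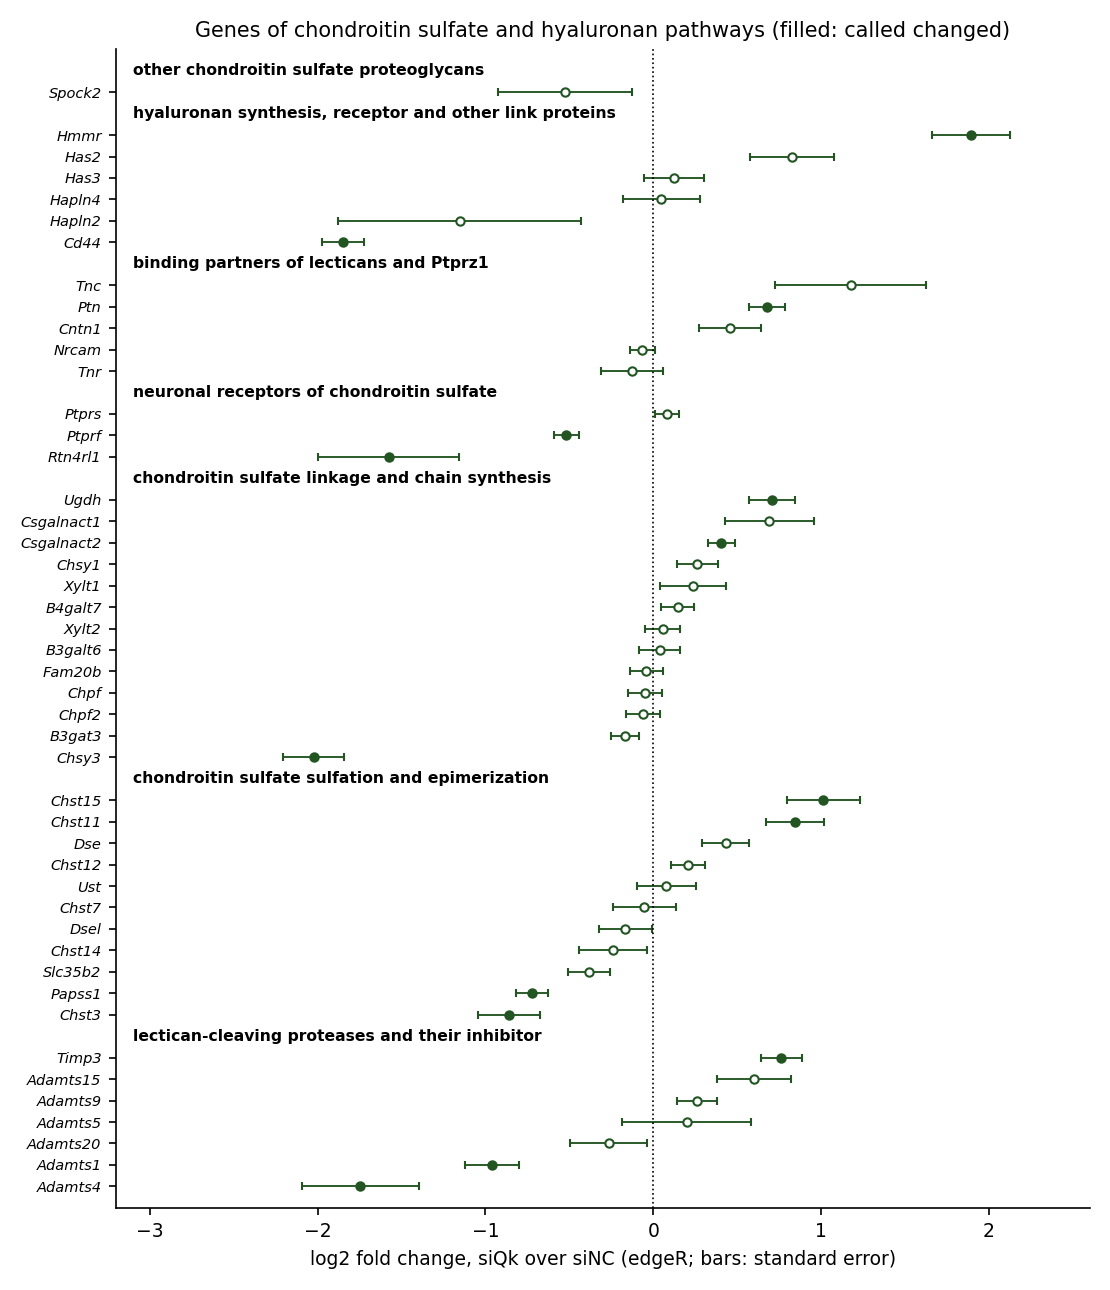
Log2 fold change of siQk over siNC for the 46 tested genes of the 7 lists, grouped by list, with bars for the standard error of edgeR's quasi-likelihood fit and filled points for called changes. The 15 filled points lie on both sides of 0, from -2.02 for Chsy3 to 1.89 for Hmmr.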

How the data were processed

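RNA was measured in 6 libraries (3 siNC, 3 siQk) of polyadenylated RNA, sequenced as 75-nt paired-end reads. The authors used OLego for alignment to mm10 and Quantas for the quantification of genes. Their versions and gene annotation are not given in the sources used here. For each gene the authors deposited an estimated count of tags, without normalization, and RPKM, which recomputing from exon length and library total returned. Genes were matched by symbol. Tags were rounded and tested with edgeR 4.0.16 (limma 3.58.1, R 4.3.3): genes with an average logCPM over 0, TMM factors, the group as the only term, and Benjamini-Hochberg adjustment over all 12505 genes tested. The steps were tested on simulated data. The SE of a log2 fold change was taken as its size over the square root of the F statistic. Single values were compared by exact permutation tests, with a pseudocount of 0.1 for log2 RPKM. Replicate pairs differed beyond sampling noise (chi-square per degree of freedom of 36.3 or more). Rn45s, an unprocessed ribosomal RNA, took 3.11% of tags in siNC replicate 1 and 0.169% to 0.389% elsewhere.

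The members, gene lists and tests were chosen with earlier results of these data known. The text names Qk, the members, their 2 nearest genes, and, for each list, the called genes with the highest and the lowest log2 fold change and any gene with a group mean over 10 RPKM. Csgalnact2, Spock2, Chst7, Chst12 and the individual markers beyond the highest of each list were named after their values were seen. Paralogs can share tags. Genes that overlap on opposite strands can do so too, since strand was not marked by the library kit. Motifs and positions came from GENCODE M21 (GRCm38). Protein sequences were not used here. A mature oligodendrocyte marker is not reported here and was left out of the counts and sums of its list. The alternatives were DESeq2 1.42.0, other scalings, filters and cutoffs, a replicate block, and each library left out in turn, 14 in all.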

Additional observations from a re-analysis of the deposited data

How the results depend on the processing

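Over the 14 alternatives, Qk, Cspg4 and Ptprz1 kept their direction and their side of the cutoffs. Ncan was called higher with DESeq2 (0.26), upper quartile factors (0.32), library totals as the scale (0.41), no filter on low counts (0.29), FDR below 0.05 alone (0.26) and without siQk replicate 2. In each of the first 5 of these settings 2 members were called changed, both higher. Leaving out each library in turn gave log2 fold changes of 0.23 to 0.32 for Ncan, -0.46 to 0.018 for Bcan and 0.29 to 0.58 for Vcan. It gave 1 to 3 members called (3 without siNC replicate 3), 1 to 2 higher and 0 to 1 lower, and 2478 to 3704 genes called of 3879. It also gave 1 to 2 receptors called, 3 to 5 proteases and inhibitors (5 without siNC replicate 2) and 1 to 2 binding partners. With library totals as the scale, Cspg5 turned to 0.085, Tnr to 0.035, Nrcam to 0.083, Chpf to 0.095 and Chpf2 to 0.086, and 1 receptor was called. Upper quartile factors turned Chpf to 0.0093. Leaving out each library in turn gave -0.28 to 0.12 for Tnr, -0.084 to 0.21 for Ust, -0.14 to 0.015 for Chpf and -0.14 to 0.052 for Chpf2. DESeq2 called 2 binding partners, and TMM scaling put the siNC mean of Cspg5 at 24.1 RPKM. The labels do not say whether the replicate numbers pair the libraries. After the group means were removed, siNC and siQk libraries with the same number correlated across genes at -0.053, -0.153 and -0.340. With 3 libraries per group, these values cannot decide whether the libraries were paired. With the replicate block, 2796 genes, 1 member (Cspg4, 0.94) and 1 receptor were called. DESeq2 called 4894 genes and the other scalings, filters and cutoffs 3863 to 4616. The cause of these shifts was not tested. Depth limits Acan and Hapln1, for which no difference could be detected.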
